A study of Mus musculus with 4 samples.

Results

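The 35 genes described here encode the peroxisome proliferator-activated receptors (PPARs), a coactivator of these receptors, and the enzymes that activate, carry and oxidise fatty acids in mitochondria and peroxisomes. They were chosen by function, as the rows of the deposited table with these gene symbols, and all 35 symbols were found once among its 55401 genes. RNA-seq libraries came from hair follicle stem cells of C57BL/6 mice in anagen, when follicles grow. The 2 libraries of the control group came from mice on a normal diet (ND) and the 2 libraries of the other group from mice on a high-fat diet (HFD) given for 4 months. The labels give no further allele, agent, age or sorting gate, and do not say whether libraries came from separate or pooled mice, so p-values reflect only library-to-library spread, which may be technical. The diets were compared step by step along the pathway.

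Fatty acids enter oxidation once acyl-CoA synthetases have linked them to coenzyme A. Long chains then cross into mitochondria as carnitine esters, and each round of beta-oxidation runs through a dehydrogenase, a hydratase, a second dehydrogenase and a thiolase. Peroxisomes shorten very long chains by a parallel set of enzymes. PPARs are nuclear receptors that bind fatty acids and, paired with a retinoid X receptor, switch on many of these genes. In skin, fatty acid oxidation and PPARs are known from keratinocyte differentiation and from sebaceous cells.

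Total counts lay between 8590570 and 9940848 per library, and 3 counts were worth 0.291 to 0.359 CPM (counts scaled to library size with TMM, a trimmed mean of ratios between libraries). All 10 bulge stem cell markers were measured, with Krt15 between 1996 and 3012 CPM and Cd34 between 64.9 and 81.1 CPM. Of these Krt14, which marks basal keratinocytes in general, rose on the high-fat diet (log2 fold change 0.70, edgeR adjusted p = 0.033), and the other 9 did not pass. Their log2 fold changes were positive for Itga6 (0.45), Krt15 (0.34), Krt5 (0.30) and Tcf7l1 (0.21). They were negative for Lhx2 (-0.49), Nfatc1 (-0.27), Cd34 (-0.20), Sox9 (-0.18) and Lgr5 (-0.13). Of 8 adipocyte markers 6 had no count in any library, among them Adipoq, Plin1 and Lep, and the list summed to 4.37 and 3.14 CPM on the normal diet and 7.73 and 7.29 CPM on the high-fat diet. Of 8 suprabasal epidermal markers 4 were called higher and 1 was called lower on the high-fat diet, and their summed level differed within the normal diet too, at 1073 CPM in the first library and 2711 CPM in the second, and reached 3765 and 4711 CPM on the high-fat diet. Summed immune markers stood at 20.2 and 37.9 CPM against 46.2 and 55.7 CPM, endothelial markers at 10.4 and 11.9 CPM against 17.8 and 21.6 CPM, and fibroblast markers at 44.97 and 56.5 CPM against 80.7 and 64.7 CPM, with 0 of these called (edgeR) and their part in the results not tested. In this bulk RNA, fewer cells of a type and less RNA per cell cannot be told apart.

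Of the 35 genes 34 had enough counts to be tested, and Acsl1, a synthetase for long-chain acyl-CoA, was the 1 gene that rose on the high-fat diet. None fell. The test was the quasi-likelihood test of edgeR on all 14479 genes with enough counts, with a call at an adjusted p under 0.05. Over all genes tested 1.12% were called higher and 0.228% lower, and the count of 1 higher among the 34 is near that background. At an unadjusted edgeR p under 0.05, 6 of the 34 genes were higher and 0 lower, against 7.24% and 6.03% of all genes tested. The 6 were Acsl1, Acsl4, Cpt1a, Acadl, Eci2 and Decr2. DESeq2 called 2 higher and 0 lower, where over all genes it called 275 higher and 119 lower. Limma on log2(FPKM + 1) called 0 in either direction, where over all genes it called 2 higher and 0 lower. The median log2 fold change was 0.16 over the 34 genes and 0.00 over all genes tested. In 17 of the 34 genes the diets were without overlap, 13 of them higher on the high-fat diet, where 22.7% of all genes tested were, and 4 of them lower, where 21.9% were. Log2 fold changes were positive for 24 genes and negative for 10, and lay within 0.5 of zero for 27. The sign was the same for 23 of the 34 in each of the 14 alternative fits that gave a value, and Pdk4, 1 of the 23, had no value in the fit filtered on mean FPKM.

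**Figure D1:**
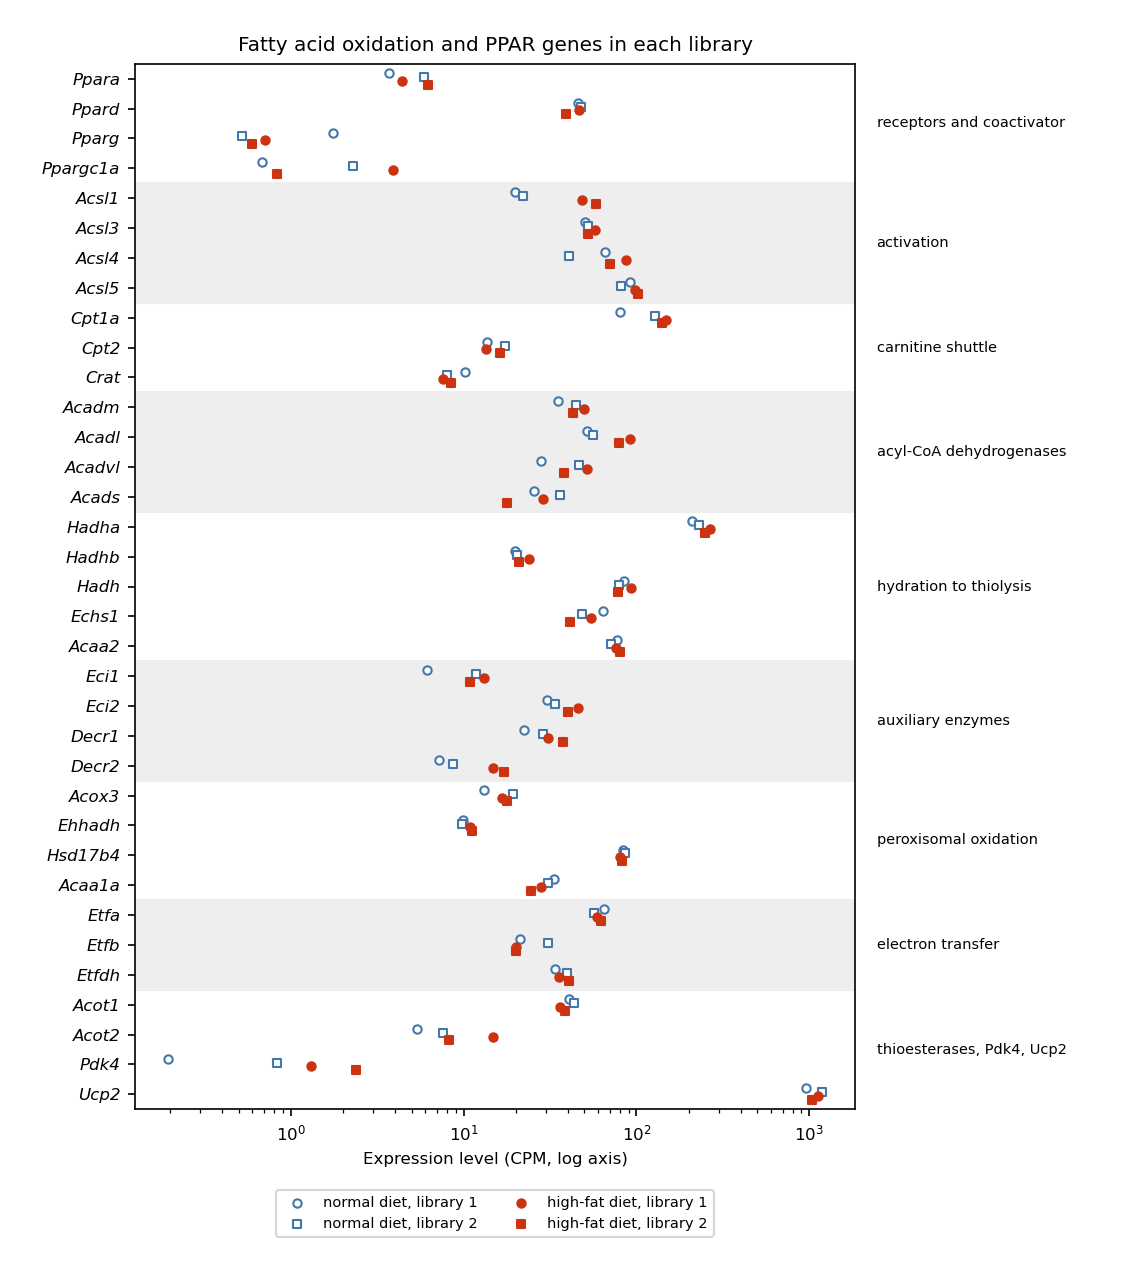
Expression level of each of the 35 genes in each of the 4 libraries, in CPM on a log axis, ordered by step; open blue symbols are normal diet and filled red symbols high-fat diet, circles the first and squares the second library of a diet. For 17 of the 34 tested genes the symbols of both diets overlap, while the 2 red symbols of Acsl1, at 48.7 and 58.1 CPM, stand to the right of the 2 blue symbols at 19.8 and 21.98 CPM.

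**Figure D2:**
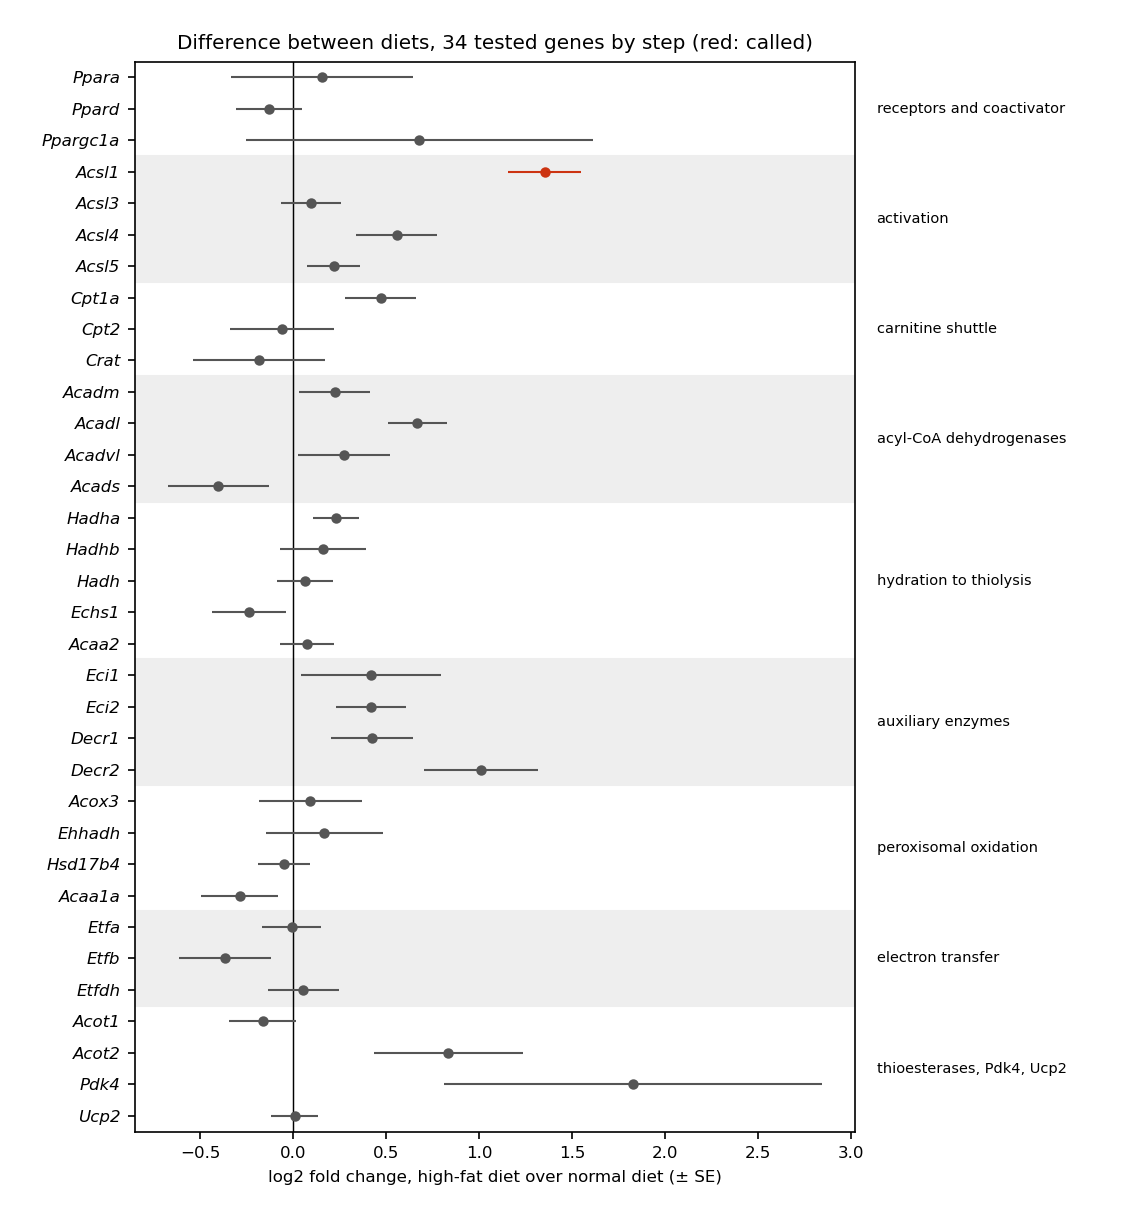
Log2 fold change of the 34 tested genes, high-fat over normal diet, with bars of 1 standard error from edgeR, ordered by step. Acsl1 in red is the called gene at 1.35; the other points, in grey, did not pass the test, and the widest bar belongs to Pdk4.

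The receptors themselves gave no call. Ppard, the subtype found in most tissues, stood at 46.0 and 47.5 CPM on the normal diet and at 46.4 and 39.1 CPM on the high-fat diet, so that the diets overlapped (log2 fold change -0.13 ± 0.17 SE, edgeR adjusted p = 0.818). Ppara, the subtype that drives oxidation in liver, stood lower, at 3.69 and 5.86 CPM against 4.40 and 6.22 CPM, with the second library of each diet above the first. Pparg, the subtype of fat and sebaceous cells, had 18 and 5 counts against 6 and 5 and was too low to test. Ppargc1a, a coactivator that raises mitochondrial gene expression, had 7 and 22 counts against 33 and 7, for a log2 fold change of 0.68 ± 0.93 (SE). Per length, Ppard exceeded Ppara in all 4 libraries, by ratios of FPKM (counts scaled by exonic length and library total) between 3.21 and 6.35, and it exceeded Pparg by ratios between 10.4 and 35.8. The order Ppard, Ppara, Pparg was therefore the same in every library of both diets.

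Activation was the step that held the call. Acsl1 (chromosome 8, positions 46471037 to 46536051, plus strand) makes acyl-CoA at the outer mitochondrial membrane and the endoplasmic reticulum and is a known PPAR target in liver and fat. It stood at 19.8 and 21.98 CPM on the normal diet and at 48.7 and 58.1 CPM on the high-fat diet. Each high-fat diet library was above each normal diet library by more than the spread within either diet. The rise was 2.55-fold, from 20.9 ± 1.53 to 53.4 ± 6.69 CPM (SD, n = 2 per diet). In log2 terms this was 1.35 ± 0.20 (SE; edgeR adjusted p = 0.0082). Without 1 library the log2 fold change lay between 1.22 and 1.48. Dropping normal diet library 1, normal diet library 2 or high-fat diet library 2 ended the call. Each such fit leaves 1 library in a diet, and it also called fewer genes over all genes tested. With no library left out, the adjusted p ran from 2.64e-07 (edgeR without a count filter) to 0.189 (limma on log2(FPKM + 0.1)). The suprabasal marker sum was also higher on the high-fat diet. By Acsl1 the libraries had the same order as by the suprabasal and the immune marker sums. Between the normal diet libraries Acsl1 differed 1.11-fold and the suprabasal sum 2.53-fold. Its member Dsg1a, a desmosomal cadherin, stood at 121.5 and 137.8 CPM against 358 and 436 CPM, as near level within the normal diet as Acsl1. Krt10, Krtdap, Krt2, Krt1 and Ivl were also higher in each high-fat diet library. Krt10, called higher, stood at 548 and 1158 CPM against 1805 and 2367 CPM. Krtdap, called higher, stood at 30.9 and 48.4 CPM against 95.3 and 74.5 CPM. Krt2, called higher, had 2 and 1 counts against 50 and 31. Krt1 (298 and 1121 CPM against 1435 and 1752 CPM) and Ivl (10.97 and 25.6 CPM against 37.6 and 30.3 CPM) did not pass. Flg, called lower, stood at 55.2 and 207 CPM against 20.1 and 34.2 CPM. Lor overlapped, at 7.28 and 12.8 CPM against 7.26 and 13.5 CPM. The part of suprabasal or immune cells in the rise of Acsl1 was not tested. Of the 9 sebocyte markers, which include Pparg, 0 of the 5 tested were called (edgeR), and their summed level was 345 and 289 CPM against 266 and 255 CPM. Of all 50-base stretches of the Acsl1 transcripts 9.23% also occurred in transcripts of other genes, nearly all in Gm45244 on the opposite strand, a gene with 0 counts in every library.

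RefSeq (build GRCm38.p6) lists 2 starts for Acsl1, and the 250 bases before each are shown because this was the gene that rose. The counts are per gene and do not separate the starts. Capitals would mark AGGTCA, the half-site to which PPARs and their partner bind, on either strand, and neither window holds it. The first window, chr8:46470787-46471036 on the plus strand, lies just before the gene and has 20 CG dinucleotides, against a median of 6 over all 32851 windows of the same length. The second, chr8:46490716-46490965, lies within an intron and has 2.
Acsl1 start 1: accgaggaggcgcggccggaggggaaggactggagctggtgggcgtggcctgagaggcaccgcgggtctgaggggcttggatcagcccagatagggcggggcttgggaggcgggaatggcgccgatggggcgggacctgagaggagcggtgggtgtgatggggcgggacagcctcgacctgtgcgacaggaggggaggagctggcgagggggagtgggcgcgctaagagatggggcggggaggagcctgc
Acsl1 start 2: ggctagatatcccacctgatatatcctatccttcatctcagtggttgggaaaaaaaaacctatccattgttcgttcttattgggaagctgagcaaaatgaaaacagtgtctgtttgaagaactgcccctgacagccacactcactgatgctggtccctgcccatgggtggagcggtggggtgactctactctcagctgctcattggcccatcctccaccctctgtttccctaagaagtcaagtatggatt

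The other synthetases did not pass the test. Acsl4, which prefers arachidonic acid, stood at 65.8 and 40.6 CPM against 86.9 and 69.8 CPM. It did not overlap, but the difference of 0.56 ± 0.22 (log2, SE) had an edgeR adjusted p of 0.286. The second normal diet library held 0.618 times the level of the first, and the log2 fold change was 0.95 when the first was left out and 0.25 when the second was. Acsl5 stood at 91.6 and 81.2 CPM against 98.3 and 102.7 CPM (log2 fold change 0.22 ± 0.14 SE), and Acsl3, a synthetase of lipid droplets, at 50.5 and 52.5 CPM against 57.8 and 52.3 CPM. All 4 log2 fold changes were positive. Per length, Acsl1 was the lowest of the 4 synthetases in every library, and Acsl5 the highest. Acsl5 exceeded Acsl1 9.95-fold and 7.96-fold in FPKM on the normal diet and 4.35-fold and 3.81-fold on the high-fat diet. Acsl1 thus stayed last in this order per length after its rise, and Acsl3 and Acsl4 changed places between libraries. The order depends on exonic size, which was 10483 bases for Acsl1 and between 4357 and 5405 bases for the others. By CPM, Acsl1 was below Acsl3 in the first high-fat diet library (48.7 against 57.8) and above it in the second (58.1 against 52.3).

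The carnitine shuttle gave no call. Cpt1a, the outer membrane transferase that sets the rate of long-chain entry (chromosome 19, positions 3322334 to 3385733), stood at 79.9 and 127.6 CPM on the normal diet and at 147.5 and 139.7 CPM on the high-fat diet. The first normal diet library was the low value, and the second lay close to the high-fat diet libraries. The log2 fold change of 0.47 ± 0.19 (SE) did not pass (edgeR adjusted p = 0.312), and it was 0.17 when the first normal diet library was left out and 0.84 when the second was. The suprabasal sum was also lowest in that first library, and its part in this pattern was not tested. Cpt2, the inner membrane transferase, stood at 13.7 and 17.3 CPM against 13.4 and 16.3 CPM, with full overlap. Crat, which buffers acetyl-CoA as carnitine ester, stood at 10.2 and 8.06 CPM against 7.61 and 8.49 CPM.

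The Cpt1a window, chr19:3323051-3323300 on the plus strand, is shown for a match to the half-site in a gene of this step. Its last 16 bases are exonic, and the rest is intronic because the annotated gene begins further upstream. AGGTCA was found, on either strand, in 6 of 34 windows of 31 of the genes, in Acadm, Acadvl, Cpt1a, Echs1 and Pparg, and in 14.0% of all windows. The full direct repeat AGGTCANAGGTCA, which contains the half-site, was in 0 of the 34 and in 0.0335% of all. Acaa2, Crat, Decr1 and Hsd17b4 had no entry. Capitals mark the half-site, here on the opposite strand.
Cpt1a start: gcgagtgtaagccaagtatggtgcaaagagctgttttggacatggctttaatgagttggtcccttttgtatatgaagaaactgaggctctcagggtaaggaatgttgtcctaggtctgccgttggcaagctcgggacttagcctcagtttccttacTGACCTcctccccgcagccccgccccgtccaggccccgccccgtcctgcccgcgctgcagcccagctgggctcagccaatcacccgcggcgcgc

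Among the 4 acyl-CoA dehydrogenases, which take the first electrons from the chain and differ in chain length, Acadl came nearest to a call. Acadl, the long-chain enzyme (chromosome 1, positions 66830839 to 66863277, minus strand), stood at 51.7 and 56.1 CPM against 92.3 and 78.9 CPM, so that the diets were apart by more than the spread within each. The difference of 0.67 ± 0.16 (log2, SE) missed the threshold with edgeR (adjusted p = 0.066). DESeq2 placed it past the threshold (adjusted p = 0.024), as did edgeR without a count filter (adjusted p = 0.0097) or with a filter on a mean FPKM of at least 1 (adjusted p = 0.041). Its adjusted p ran from 0.0097 to 0.548 over all alternatives. Acadvl, the very long-chain enzyme, stood at 28.2 and 46.4 CPM against 51.9 and 38.3 CPM, and 26.9% of its transcript stretches of 50 bases also lie in other genes, mainly the overlapping Dvl2, so its value is uncertain. Acadm, the medium-chain enzyme, stood at 35.3 and 44.5 CPM against 49.97 and 43.1 CPM. Acads, the short-chain enzyme, went the other way, at 25.4 and 36.2 CPM against 28.7 and 17.9 CPM, and overlapped (log2 fold change -0.40 ± 0.27 SE). Per length Acadl was the highest of the 4 in every library, 1.62-fold to 2.76-fold above Acadvl. The Acadl window, chr1:66863310-66863559 on the minus strand, is shown as that of the gene nearest to a call. It lies before the gene, holds no half-site and has 25 CG dinucleotides.
Acadl start: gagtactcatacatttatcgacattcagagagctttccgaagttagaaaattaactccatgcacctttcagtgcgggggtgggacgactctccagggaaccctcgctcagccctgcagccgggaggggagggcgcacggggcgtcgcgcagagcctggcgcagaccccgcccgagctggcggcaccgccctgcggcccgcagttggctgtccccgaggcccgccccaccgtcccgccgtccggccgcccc

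The core mitochondrial enzymes after the first dehydrogenation had small differences. Hadha and Hadhb encode the alpha and beta subunits of the trifunctional protein, which carries out the last 3 reactions on long chains. Hadha stood at 210.1 and 229.7 CPM against 266 and 249.9 CPM, and Hadhb at 19.9 and 20.3 CPM against 23.9 and 21.05 CPM. Both genes were higher in each high-fat diet library, by log2 fold changes of 0.23 ± 0.12 and 0.16 ± 0.23 (SE), and neither passed (edgeR adjusted p = 0.454 and 0.832). Hadh, the medium- and short-chain hydroxyacyl dehydrogenase, stood at 84.4 and 79.0 CPM against 92.8 and 78.2 CPM. Echs1, the short-chain hydratase, had a log2 fold change of -0.24 ± 0.20 (SE), and the thiolase Acaa2 stood at 77.5 and 71.6 CPM against 76.4 and 80.7 CPM. For Hadh, Echs1 and Acaa2 the diets overlapped.

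Although the subunits are made for 1 complex, Hadha exceeded Hadhb per length 7.96-fold to 8.96-fold in the 4 libraries, at 24.9 to 29.3 FPKM against 3.11 to 3.49 FPKM. The ratio varied little between libraries and diets. Of the 50-base stretches of Hadhb 19.7% also occur in transcripts of other genes, mainly the gene model Gm13910, against 0.341% for Hadha. How such reads were counted is not stated, so the level of Hadhb is uncertain. The ratio per length also depends on exonic size, 8730 bases for Hadha and 6595 bases for Hadhb. The part of shared sequence in this ratio was not tested. The 2 genes lie head to head on chromosome 5. The 85 bases between their annotated edges, chr5:30155163-30155247, are shown on the plus strand. They were chosen as the shared start region of genes counted at so unequal levels. This stretch has 9 CG dinucleotides and no half-site.
Between Hadha and Hadhb: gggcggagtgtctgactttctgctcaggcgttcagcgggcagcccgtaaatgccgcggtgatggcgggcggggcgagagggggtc

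**Figure D3:**
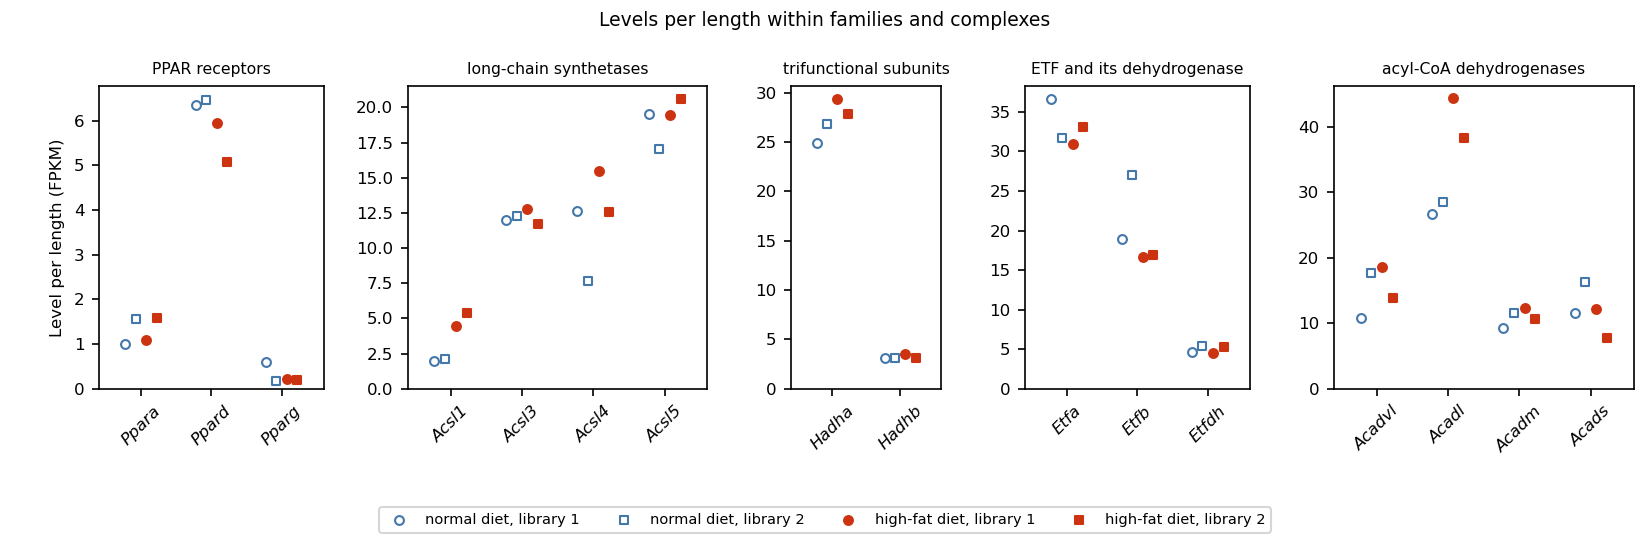
Level per length (FPKM) of related genes in each library, with open blue symbols for normal diet and filled red symbols for high-fat diet, for PPAR receptors, long-chain synthetases, trifunctional protein subunits, the electron transfer flavoprotein (ETF) with its dehydrogenase, and acyl-CoA dehydrogenases. Hadha at 24.9 to 29.3 FPKM stands far above Hadhb at 3.11 to 3.49 FPKM in all libraries, and Acsl1 remains the lowest synthetase.

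The auxiliary enzymes, which shift or reduce double bonds so that unsaturated chains can be oxidised, had positive log2 fold changes for all 4 genes, between 0.42 and 1.01, and 0 calls (edgeR), with Eci2 and Decr2 under an unadjusted p of 0.05. Decr2, the peroxisomal dienoyl-CoA reductase, stood at 7.19 and 8.69 CPM against 14.9 and 17.1 CPM. Its high-fat diet libraries were both well above the normal diet libraries, at a fold change of 2.01, yet the log2 fold change of 1.01 ± 0.31 (SE) had an edgeR adjusted p of 0.170, and without 1 library it lay between 0.88 and 1.15. Decr1, the mitochondrial reductase, stood at 22.2 and 28.8 CPM against 30.9 and 37.5 CPM. Eci2 stood at 30.5 and 33.6 CPM against 45.7 and 39.9 CPM, without overlap, and Eci1 at 6.12 and 11.8 CPM against 13.1 and 10.9 CPM, where the first normal diet library was the low value. Summed, the 4 genes stood at 66.0 and 82.9 CPM on the normal diet and at 104.6 and 105.5 CPM on the high-fat diet. The suprabasal marker sum was ordered in the same way, and its part here was not tested.

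Peroxisomal oxidation and electron transfer gave no call and log2 fold changes between -0.37 and 0.17. Hsd17b4, the D-bifunctional protein that hydrates and dehydrogenates very long chains, stood at 83.3 and 85.3 CPM against 79.8 and 83.0 CPM. Ehhadh, its L-specific counterpart and a known PPAR target in liver, stood at 9.91 and 9.74 CPM against 10.9 and 11.1 CPM. Acox3, an oxidase for branched chains, stood at 13.1 and 19.4 CPM against 16.8 and 17.8 CPM. The thiolase Acaa1a was lower in each high-fat diet library, at 33.3 and 30.9 CPM against 28.1 and 24.5 CPM (log2 fold change -0.29 ± 0.21 SE, edgeR adjusted p = 0.610), and shares 17.1% of its stretches with other genes, mainly its close copy Acaa1b. Etfa and Etfb form the flavoprotein that collects electrons from the dehydrogenases, and Etfdh passes them to ubiquinone. Etfa stood at 64.9 and 57.0 CPM against 59.01 and 62.3 CPM, and Etfdh at 33.99 and 39.6 CPM against 35.5 and 40.9 CPM. Etfb stood at 21.3 and 30.9 CPM against 20.2 and 20.2 CPM, with the second normal diet library apart from the other three, and 44.8% of its stretches are shared, mainly with the overlapping gene model Gm45233. Per length Etfa exceeded Etfb 1.17-fold to 1.96-fold and Etfdh 5.89-fold to 7.81-fold.

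The last group holds thioesterases, which release fatty acids from coenzyme A, and mitochondrial genes known to respond to fatty acids. Ucp2, an inner membrane carrier, was the most abundant of all 35 genes, at 962 and 1188 CPM against 1129.7 and 1033 CPM, and took between 39.9% and 45.1% of their summed CPM. Its diets overlapped, and the log2 fold change was 0.01 ± 0.13 (SE). Pdk4, a kinase that shuts pyruvate out of oxidation and a classic PPAR target, was near the detection limit, with 2 and 8 counts against 11 and 20. Its log2 fold change was 1.83 ± 1.02 (SE; edgeR adjusted p = 0.480), and with so few counts a difference of this size was not resolved. Acot2, a mitochondrial thioesterase, stood at 5.34 and 7.64 CPM against 14.9 and 8.25 CPM, where the first high-fat diet library stood apart. Acot1, the cytosolic form, stood at 40.6 and 43.3 CPM against 36.2 and 38.7 CPM and was lower in each high-fat diet library (log2 fold change -0.16 ± 0.18 SE). These neighbours on chromosome 12 are similar, with 27.7% of the Acot2 stretches and 19.2% of the Acot1 stretches shared with other genes, mainly each other, so their separate values are uncertain.

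Summed over all 35 genes the level was 2315 and 2633 CPM on the normal diet and 2789 and 2591 CPM on the high-fat diet, and the diets overlapped. Without Ucp2 the sums were 1352 and 1445 CPM against 1660 and 1558 CPM, and did not overlap. The scaled CPM of all genes did not overlap either, with means of 972992 on the normal diet and 1033250 on the high-fat diet. By mean FPKM over the 4 libraries, 32 of the 35 genes reached 1 and 16 reached 10. After Ucp2, with a mean of 153.9 FPKM, came Acaa2 with 50.4, Acadl with 34.5 and Etfa with 33.1 FPKM. The neighbours Acadl and Etfa changed places between libraries. This order depends on exonic size, which was 1516 bases for Acaa2, 2005 for Acadl and 1835 for Etfa but 8730 for Hadha. By CPM, Hadha, at 210.1 to 266.0, was above Acaa2, Acadl and Etfa in every library.

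Beyond these genes, 82 others of carnitine transport, mitochondrial and peroxisomal oxidation, ketone bodies, acyl-CoA handling, PPAR partners and PPAR-responsive genes were examined, and 66 were tested. Acsbg1 was called higher and 0 were called lower, where 1.12% and 0.228% of all genes tested were. At an unadjusted edgeR p under 0.05, 3 were higher and 2 lower, against 7.24% and 6.03% of all. DESeq2 likewise called 1 higher and 0 lower, where over all genes it called 275 and 119. Limma on log2(FPKM + 1) called 0, where over all genes it called 2 higher and 0 lower. The median log2 fold change was 0.04. In 24 of the 66 the diets did not overlap, 14 of them higher and 10 lower, where 22.7% and 21.9% of all genes tested were. Acsbg1, a synthetase for very long-chain fatty acids, stood at 25.2 and 41.1 CPM against 74.01 and 78.9 CPM, and the high-fat diet libraries were close together well above the normal diet libraries. It rose 2.31-fold, from 33.1 ± 11.3 to 76.5 ± 3.48 CPM (SD, n = 2), which is 1.21 ± 0.22 in log2 terms (SE; edgeR adjusted p = 0.025). Leaving out normal diet library 1 gave 0.90 and leaving out library 2 gave 1.60, and neither was called. Leaving out high-fat diet library 2 also ended the call. Each such fit leaves 1 library in a diet, and it also called fewer genes over all genes tested. With no library left out, the adjusted p of Acsbg1 ran from 9.51e-08 (edgeR without a count filter) to 0.189 (limma on log2(FPKM + 0.1)). The libraries had the same order by Acsbg1 as by the suprabasal and the immune marker sums, and the part of these cells was not tested. Both genes called here, Acsl1 and Acsbg1, encode acyl-CoA synthetases.

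None of the genes named next passed the test. Dbi, the acyl-CoA binding protein, stood at 54.5 and 55.9 CPM against 77.2 and 71.8 CPM (log2 fold change 0.43 ± 0.15 SE, edgeR adjusted p = 0.235). Bdh1, which interconverts ketone bodies, stood at 53.4 and 52.0 CPM against 35.9 and 43.9 CPM, and Pprc1, a coactivator related to Ppargc1a, at 77.7 and 90.9 CPM against 59.4 and 55.5 CPM. The log2 fold change was -0.40 ± 0.18 (SE) for Bdh1 and -0.55 ± 0.16 (SE) for Pprc1, and neither passed (edgeR adjusted p = 0.355 and 0.131). Log2 fold changes were 0.31 for the peroxisomal carrier Scp2 and 0.37 for Txnip. They were -0.27 for the thiolase Acat1, -0.25 for the deacetylase Sirt1 and -1.19 for the oxidase Acox2, which had 34 and 31 counts against 12 and 12. Cpt1a exceeded its brain isoform Cpt1c per length 4.61-fold to 11.8-fold, and the muscle isoform Cpt1b had 8 and 3 counts against 0 and 0.

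**Figure D4:**
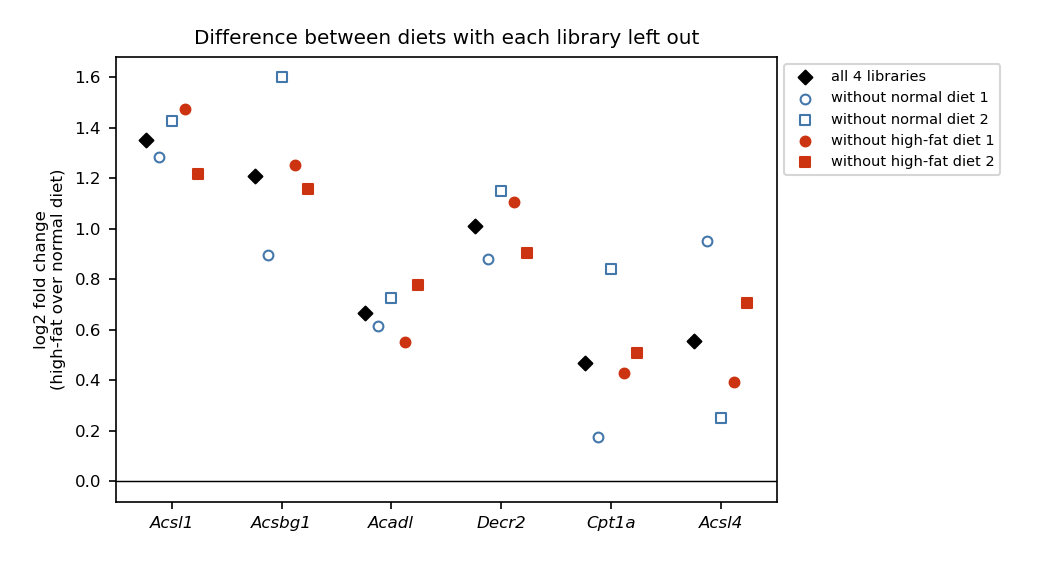
Log2 fold change of 6 genes, high-fat over normal diet, with all 4 libraries (black diamonds) and with each library left out (open blue symbols without a normal diet library, filled red symbols without a high-fat diet library). Acsl1 stays between 1.22 and 1.48, whereas Cpt1a moves from 0.17 to 0.84 depending on which normal diet library is left out.

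**Figure D5:**
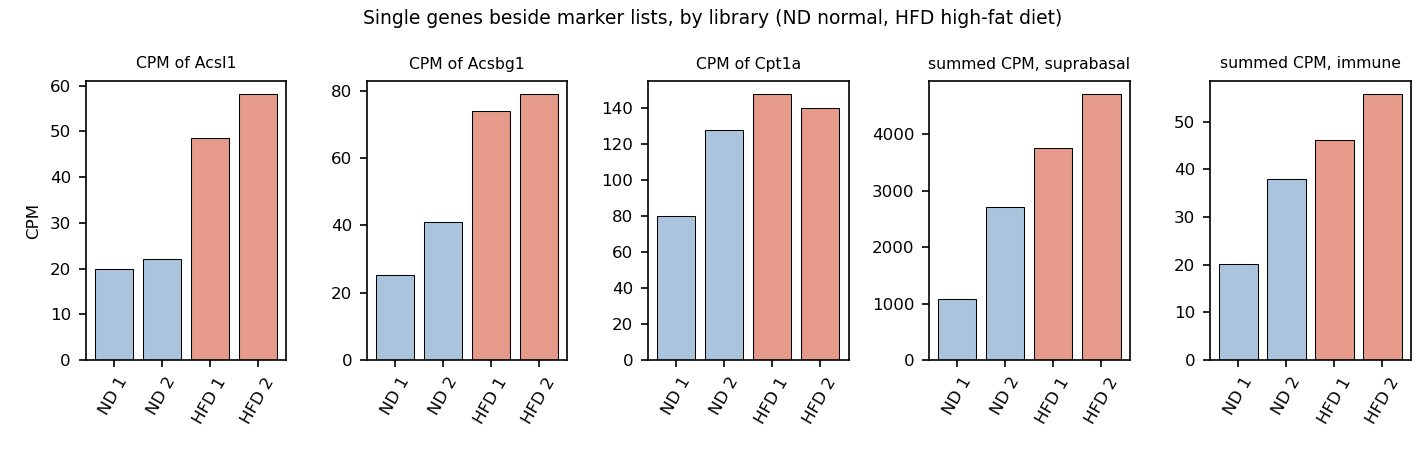
Level in CPM of Acsl1, Acsbg1 and Cpt1a, and summed CPM of 8 suprabasal and 7 immune markers, in each library, as bars from 0 with blue for normal and red for high-fat diet. In every panel both red bars are above both blue bars, and the blue bars stand at 19.8 and 21.98 CPM for Acsl1, at 1073 and 2711 CPM for the suprabasal sum and at 20.2 and 37.9 CPM for the immune sum.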

How the data were processed

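The authors deposited raw counts and FPKM values per gene with exonic sizes. Tools named, per the submitters' processing notes, are HISAT2 2.0.1, cutadapt 1.9.1 and bcl2fastq 2.17.1.14. How reads were counted, on which strand and on which build is not stated in the sources. Each of the 221604 deposited FPKM values matched, within 0.0051, its count over exonic size and library total. All 35 genes have the position of GENCODE M21 (GRCm38).

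Counts of all genes were tested in R 4.3.3 with edgeR 4.0.16 (TMM; default expression filter with a minimum count of 10, 14479 genes kept; Benjamini-Hochberg adjustment over these; call at adjusted p under 0.05). Standard errors are the log2 fold change divided by the square root of F. DESeq2 1.42.0 and limma 3.58.1 on log2(FPKM + 1) were alternatives, with other scalings and filters and each library left out. Scripts were tested on simulated data. Within diets, libraries differed by more than sampling noise (chi-square per degree of freedom 13.9 for the normal and 6.53 for the high-fat diet). Against high-fat diet libraries 1 and 2 the value was 25.5 and 25.0 for normal diet library 1. For normal diet library 2 it was 15.3 and 17.1, not far above the 13.9 within the normal diet.

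The genes and lists were chosen with earlier results of these data known. The text accounts for all 35 genes, and names other pathway genes when called, plus the 5 higher and 5 lower with the smallest p; a few genes that the rule takes are not reported here. Cpt1b and Cpt1c were named outside this rule, as isoforms of Cpt1a, after their values were seen. The summed levels of adipocyte, fibroblast, endothelial, melanocyte and muscle markers were at most 80.7 CPM in any library, with 0 of these markers called (edgeR). Promoter windows come from RefSeq. Shared sequence is the percentage of 50-base stretches of GENCODE transcripts that occur in another gene's transcripts on either strand.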

Additional observations from a re-analysis of the deposited data

How the results depend on the processing

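With 2 libraries per diet and standard errors with a median of 0.20 over the 34 tested genes, small differences could not be resolved. Of the 34 genes, 1 was called higher in the reported fit. The number was 2, each time Acadl and Acsl1, with DESeq2, without a count filter, after a filter on mean FPKM (at least 1), with the replicate block and at an adjusted p under 0.10. It was 0 with limma at either pseudocount, and 0 to 1 with a library left out. Other pathway genes called higher (1) numbered 2 without a filter and with the replicate block, Acsbg1 among them, 0 with limma at either pseudocount, and 0 to 1 with a library left out, and 1 was lower without a filter (Pprc1, adjusted p = 0.046). The replicate numbers share no stated origin, and deviations of same-numbered libraries did not correlate over genes (r = -0.01). Over all genes, 162 were called higher and 33 lower in the reported fit, and 308 and 111 with the replicate block. These counts were 90 and 3 with equal sums of TPM, 408 and 225 without a filter, 2 and 0 with limma, 275 and 119 with DESeq2, 132 and 65 with total counts, 213 and 55 after the filter on mean FPKM, 280 and 101 at an adjusted p under 0.10, and 0 to 81 higher and 0 to 2 lower with a library left out. The median log2 fold change of the 34 genes (0.16) was 0.092 with equal TPM sums, 0.073 with total counts, 0.048 with log2(FPKM + 1), 0.070 with log2(FPKM + 0.1), and 0.069 to 0.175 with a library left out. That of the other pathway genes (0.036) was -0.035 with equal TPM sums, -0.050 with total counts, -0.020 with log2(FPKM + 1), 0.084 with the replicate block, and 0.029 to 0.169 with a library left out. The median over all genes tested (0.00) moved as well, to -0.071 with equal TPM sums, -0.085 with total counts, -0.063 with log2(FPKM + 1) and -0.078 with log2(FPKM + 0.1), so these settings shifted all genes downward together. It was 0.0063 with the replicate block, where the cause of the shift was not tested.

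Of the 34 genes 23 kept their sign in each of the 14 alternative fits that gave a value, as did all 11 other pathway genes that the naming rule takes. Pdk4 and Acox2 had no value in the fit filtered on mean FPKM. Several sign changes arose in the scalings that shifted all genes. With equal TPM sums, the log2 fold changes of Hadh, Etfdh and Ucp2 were -0.013, -0.0055 and -0.053. With total counts those of Hadh, Acaa2, Etfdh and Ucp2 were -0.022, -0.011, -0.031 and -0.077, with log2(FPKM + 1) -0.024, -0.010, -0.027 and -0.071, and with log2(FPKM + 0.1) -0.026, -0.011, -0.032 and -0.072. Etfa was 0.0064 after the filter on mean FPKM, and Ucp2 -0.0017 without a filter. With a library left out the ranges were -0.82 to 1.79 for Ppargc1a, -0.14 to 0.52 for Ppara, -0.21 to 0.11 for Cpt2, -0.34 to 0.0020 for Crat, -0.037 to 0.68 for Acadvl, -0.063 to 0.18 for Hadh, -0.16 to 0.40 for Acox3, -0.10 to 0.092 for Etfa, -0.053 to 0.165 for Etfdh and -0.13 to 0.17 for Ucp2.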
